A study of Mus musculus with 6 samples.

Results

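Wnt ligands, Frizzled receptors and secreted Wnt antagonists were described here at the level of chromatin in mouse prospermatogonia, which are germ cells of the male fetus. The 37 genes were 19 ligands (Wnt1 to Wnt16), 10 receptors (Fzd1 to Fzd10) and 8 antagonists (Sfrp1, Sfrp2, Sfrp4, Sfrp5 and Dkk1 to Dkk4), out of 21757 protein-coding genes. An interval belonged to a gene when the transcript of its nearest promoter, or the transcript that its annotation names, mapped to that gene. This selected 117 of 64891 H3K4me3 regions in replicate 1 and 8 of 1730 in replicate 2, and 7 of 7861 TAF4b peaks in replicate 1 and 1 of 848 in replicate 2.

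The assay was CUT&RUN, in which an antibody tethers a nuclease that cuts out the DNA beside its target. The 6 samples form 3 groups of 2 replicates, which differ in the antibody: TAF4b, which is part of TFIID, the complex that recognises core promoters; H3K4me3, the trimethylated lysine of histone H3 that marks promoters; and IgG, a control that was not analysed here. All 6 are male cells of age E16.5 (days of embryonic development), labelled wild type for Taf4b and of strain C57BL/6. They came from gonads of embryos with an Oct4-EGFP transgene, in which the Oct4 promoter drives a green fluorescent protein, and were sorted live on that signal. The labels name the reporter stock B6;129S4-Pou5f1tm2Jae/J, a mixed background, beside the C57BL/6 strain entry. Nothing in them says whether replicates came from separate litters, so the spread between replicates may be technical.

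Wnt proteins are secreted lipid-modified signals that bind Frizzled receptors together with the coreceptors Lrp5 and Lrp6. The canonical branch stabilises beta-catenin, which enters the nucleus and acts with TCF and LEF factors, while other branches act on cell polarity and movement. Sfrp proteins bind Wnts outside the cell, and Dkk1, Dkk2 and Dkk4 bind the coreceptors, while Dkk3 is a divergent member of its family. In the fetal gonad, Wnt4 and Rspo1 are known for ovarian development, and Wnt5a with its receptor Ror2 for the migration of primordial germ cells. H3K4me3 is common at CpG-rich promoters, also at some that are not transcribed, so its presence is no measure of expression.

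By the deposited promoter-TSS class, TAF4b peaks among the 37 genes lay at receptors alone, and the difference between roles was not tested. The ligand Wnt2 had a TAF4b peak in an exon, 283 bp from the nearest start site. The DNA of 3 receptors with a promoter-class peak is printed here. Beside it stands that of a receptor and a ligand with no listed TAF4b interval at their start sites. Each sequence is from GRCm39, 5′ to 3′ along the gene's own strand. Capitals mark a GC box (GGGCGG or its complement CCGCCC) or a CCAAT box (CCAAT or its complement ATTGG), and adjoining GC boxes can overlap.
Fzd4, chr7:89053431-89053562, plus strand, the 132 bases between its start site and that of the divergent gene Tmem135: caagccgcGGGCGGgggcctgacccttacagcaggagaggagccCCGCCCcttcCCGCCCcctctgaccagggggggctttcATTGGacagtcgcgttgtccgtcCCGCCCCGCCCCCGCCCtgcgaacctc
Fzd1, chr5:4808036-4808167, minus strand, the part of its TAF4b peak upstream of the start site: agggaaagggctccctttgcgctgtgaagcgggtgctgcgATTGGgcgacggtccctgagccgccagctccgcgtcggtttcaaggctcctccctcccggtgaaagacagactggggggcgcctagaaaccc
Fzd7, chr1:59521080-59521222, plus strand, its TAF4b peak: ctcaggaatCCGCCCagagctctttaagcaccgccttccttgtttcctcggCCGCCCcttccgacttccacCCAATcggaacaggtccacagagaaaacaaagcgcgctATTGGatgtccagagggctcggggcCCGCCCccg
Fzd10, chr5:128677766-128677907, plus strand, upstream of a start site with no TAF4b peak: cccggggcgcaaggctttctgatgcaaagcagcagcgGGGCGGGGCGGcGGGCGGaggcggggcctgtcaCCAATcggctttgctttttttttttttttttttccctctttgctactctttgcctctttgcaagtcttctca
Wnt16, chr6:22288079-22288220, plus strand, upstream of a start site with no TAF4b peak: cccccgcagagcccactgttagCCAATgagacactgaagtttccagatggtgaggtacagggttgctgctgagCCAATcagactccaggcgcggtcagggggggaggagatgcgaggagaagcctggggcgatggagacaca
The Fzd4 stretch held 6 GC boxes and 1 CCAAT box at 73.5% G and C. The Fzd1 stretch held no GC box and 1 CCAAT box, and the Fzd7 peak 3 GC boxes and 2 CCAAT boxes. Without a TAF4b peak, Fzd10 held 3 GC boxes and 1 CCAAT box, and Wnt16 held 2 CCAAT boxes and no GC box.

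Every one of the 37 genes had at least 1 H3K4me3 region assigned to it in replicate 1, with a median of 3 regions and at most 9. Replicate 2 listed far fewer regions, and 7 of the 37 genes had any. Assigned regions can lie far from a gene, as at Fzd1, where one was 282237 bp from the nearest start site. The share of all protein-coding genes with any assigned region was not counted, so neither count can be called high or low. By the deposited promoter-TSS class, annotated to the gene itself, 16 of 37 genes (43.2%) had a promoter region in replicate 1, against 44% of all protein-coding genes, and 3 of 37 (8.11%) in replicate 2, against 4.14%. These counts use the gene of the transcript that the class names. Assigned by the nearest transcript as well, the class also takes in Fzd10 and Wnt7a in replicate 1 (18 of 37, against 48.6% of protein-coding genes) and Fzd4 in replicate 2 (4 of 37, against 4.78%), while the TAF4b counts stay at 4 (against 24.9%) and 1 (against 3.55%). The class follows the midpoint of an interval, so a wide region that runs far enough into a gene can be classed as exon or intron. Counted by whether a region covers any annotated start site, 34 of 37 genes (91.9%) were marked in replicate 1, against 64.4% of all protein-coding genes, and 3 of 37 (8.11%) in replicate 2, against 5.49%. Of the 34, 3 were covered in replicate 2 as well, against 8.3% of all genes covered in replicate 1. With the canonical start site alone the counts were 32 of 37 (86.5%, against 56.2%) and 2 of 37 (5.41%, against 3.52%). By the deposited distance, 33 of 37 genes had a region centred within 1000 bp of a start site in replicate 1 (against 62%) and 5 of 37 in replicate 2 (against 5.89%). The share of these genes with a promoter-class region was thus close to the background in replicate 1 and above it in replicate 2, where it rests on 3 genes, and the share with a covered start site was above it in replicate 1. The listed start sites of Dkk4, Wnt8b and Wnt9a were not covered.

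**Figure D1:**
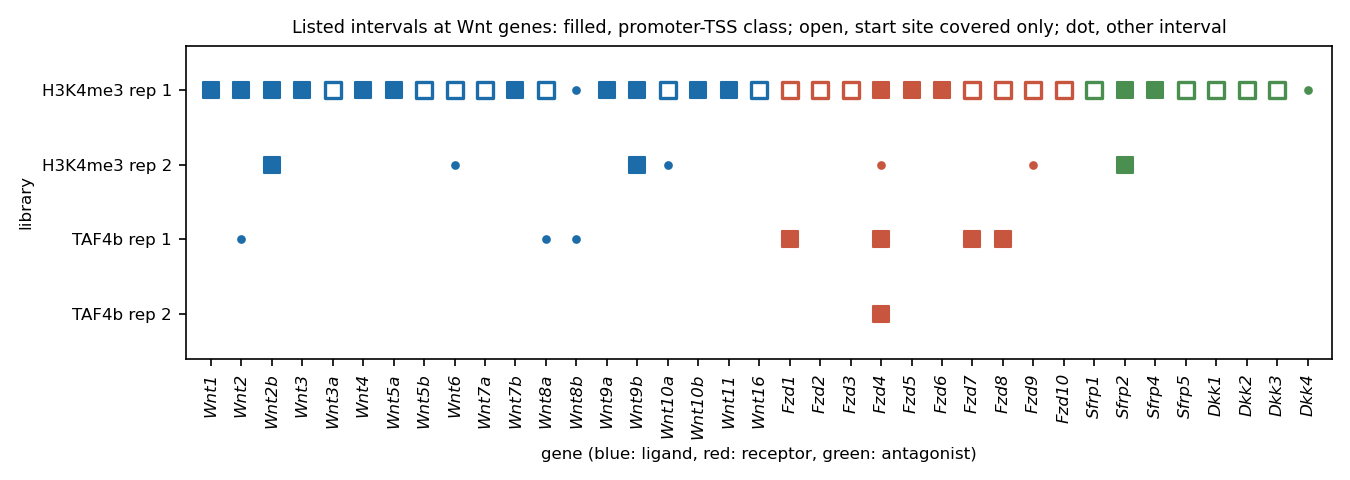
Listed intervals at each of the 37 genes (x axis) in the 4 lists (y axis); filled squares are genes with a promoter-TSS interval annotated to the gene itself, open squares genes whose start site is covered but which have no such interval, dots genes with any other interval. H3K4me3 replicate 1 fills all 37 columns, and the TAF4b squares stand at Fzd1, Fzd4, Fzd7 and Fzd8 in replicate 1 and at Fzd4 in replicate 2.

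Across the 34 covered genes, the widest region at a start site in replicate 1 had a median width of 2342 bp (1046 to 5503 bp), against 1475 bp over 14001 covered protein-coding genes. Regions of 3000 bp or wider were found at 11 of the 34 (32.4%), against 3.66% of the covered protein-coding genes. The median score of these regions, the authors' value on a scale not given in the sources used here, was 143.85 against 95.4. By that score the median region of the 34 stood above 94.9% of the list, and the median over all covered genes above 83.2%. For promoter-class regions alone the contrast in replicate 1 was smaller, with a median of 1624 bp at 16 of the Wnt genes against 1341 bp over 9569 protein-coding genes. In replicate 2 both medians were 500 bp. That is the smallest and also the median width of the whole list, so these medians could hardly differ. By start-site regions the receptors had the highest median width, 2908 bp over 10 genes, followed by the ligands with 2580 bp over 17 and the antagonists with 1767 bp over 7. The width taken for Wnt5b was 2589 bp, of a region whose annotation names Fbxl14. Its region at the canonical start site was 1824 bp, which would give a lower ligand median. Genes are not replicates and only this list has wide regions (the widest in replicate 2 was 1767 bp), so these are descriptions of 1 library.

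**Figure D2:**
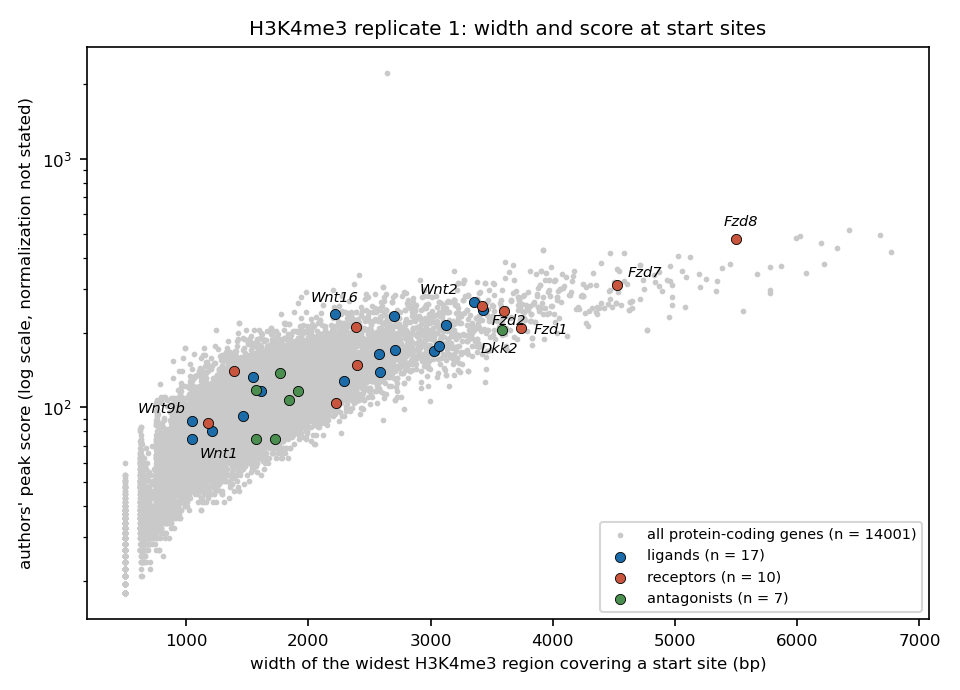
Width (x axis, bp) and authors' score (y axis, log scale) of the widest H3K4me3 region covering a start site in replicate 1, for 14001 protein-coding genes (grey) and the 34 covered Wnt genes by role (coloured). The coloured points run from Wnt1 and Wnt9b at 1046 bp to Fzd8 at 5503 bp, which stands near the wide, high-scoring end of the grey cloud.

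Among the ligands, 17 of 19 had a covered start site in replicate 1 and 2 of 19, Wnt2b and Wnt9b, in replicate 2. Wnt2, a ligand of lung and placental development, had a region of 3354 bp with a score of 265.3, rank 207 of the list, where rank 1 is the highest score. It had no region in replicate 2. Wnt5a, the ligand of the noncanonical branch, had separate regions at separate start sites. The first was 3426 bp wide (score 245.9, rank 303) and began downstream of the canonical start site, and the second was 2949 bp wide (score 199.7, rank 761) at a later transcript start. Neither was listed in replicate 2. Wnt16, known for roles in bone and in blood stem cell specification, had a narrower region of 2220 bp with a high score (237.0, rank 373).

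Wnt7b, a ligand of lung and kidney development, also had a pair of regions. Its region at the canonical start site was 2690 bp wide with a score of 164.0 (rank 1845), and the region at a downstream start was 2705 bp wide with a score of 232.5 (rank 397). The first of these lies beside the start of the gene AU022754, so its mark cannot be assigned to Wnt7b alone. Wnt10b, which acts in bone and fat, had a region of 2580 bp (score 164.0, rank 1845). Wnt3a, a classical activator of beta-catenin, had 3123 bp (score 214.6, rank 571). Wnt7a, needed for the female reproductive tract, had 3067 bp (score 177.4, rank 1301), and the annotation of that region names the neighbour Gm30437. Wnt6 had 3030 bp at its start (score 168.4, rank 1654) and another 2794 bp towards its end (score 141.6, rank 3360).

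Wnt4 stood lower in the list, with 1209 bp and a score of 80.5 (rank 14823). The narrowest start-site regions were those of Wnt1, a ligand of the midbrain, and Wnt9b, a ligand of kidney tubules, at 1046 bp each. Their scores were 74.5 (rank 16972) and 87.9 (rank 12621). The remaining covered ligands, Wnt2b, Wnt3, Wnt5b, Wnt8a, Wnt10a and Wnt11, had canonical start-site regions between 1467 bp (Wnt8a) and 2290 bp (Wnt2b). At starts of other transcripts Wnt11, a noncanonical ligand, had a wider region of 2707 bp (score 169.9, rank 1579) and Wnt5b, related to Wnt5a, one of 2589 bp (score 138.6, rank 3630), whose annotation and nearest transcript name Fbxl14, so that it is not among the 117 assigned regions. Both uncovered ligands had intervals nearby. Wnt9a had 3 narrow regions of 500 to 753 bp on either side of its start, with scores of 23.8 to 35.8, the first of which has the promoter class. Wnt8b had its strongest region, 1564 bp with a score of 117.8, inside the gene.

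Several ligand genes are neighbours, and the marks of neighbours differed. Wnt3a and Wnt9a, 15983 bp apart on chromosome 11, had the 3123 bp region at the first and no covered start at the second. Wnt1 and Wnt10b, 11289 bp apart on chromosome 15, had 1046 and 2580 bp. Wnt6 and Wnt10a, 19753 bp apart on chromosome 1, had 3030 and 1614 bp. Wnt3 and Wnt9b, 24321 bp apart on chromosome 11, had 1544 and 1046 bp, the most alike of these widths.

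All 10 receptor genes had a covered start site in replicate 1. Fzd8, a receptor studied in neural and kidney development, had the widest and highest-scoring region of the 37 genes, 5503 bp with a score of 477.0, rank 12 of 64891. Fzd7, a receptor of stem cells in several epithelia, followed with 4526 bp (score 310.0, rank 95). Fzd1 had 3738 bp (score 208.7, rank 632), Fzd10 3604 bp (score 244.5, rank 310) and Fzd2 3418 bp (score 256.4, rank 246). The annotation of the Fzd10 region names another gene, Fzd10os. The regions of these receptors are not upstream alone. They ran from 817 to 2167 bp upstream of the canonical start to between 1856 and 3336 bp downstream of it. In 6 of the 10 receptor genes (Fzd1, Fzd2, Fzd5, Fzd8, Fzd9 and Fzd10) the whole coding sequence lies in 1 exon, and the genes are short. H3K4me3 regions covered 81.6% of the Fzd1 gene, 77.4% of Fzd9, 58.1% of Fzd2, 57.1% of Fzd10, 55.9% of Fzd8 and 39.6% of Fzd5.

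Fzd4, the receptor for Norrin in retinal vessels as well as for Wnts, had a region of 2394 bp (score 210.2, rank 622). It spans the start of Tmem135 too, 133 bp away on the other strand. Fzd9 had 2398 bp (score 147.6, rank 2899) and Fzd3, a receptor of axon guidance, 2226 bp (score 104.3, rank 8457). At the low end were Fzd5, with 1395 bp (score 140.1, rank 3439), and Fzd6, which acts with Fzd3 in planar polarity, with 1183 bp (score 86.5, rank 12906). The Fzd6 region began past the canonical start site and covered a start of another transcript.

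Of the antagonists, 7 of 8 had a covered start site in replicate 1, and Sfrp2 in replicate 2. Dkk2 stood apart from the others with 3583 bp (score 204.2, rank 689). The remaining 6 regions were 1572 to 1915 bp wide. Sfrp5 had the highest score of these 6 (137.1, rank 3711), and Sfrp1 and Sfrp4 the lowest (74.5, rank 16972, for each). Dkk1, the inhibitor known from head induction, had 1572 bp (score 117.8, rank 6106). Dkk4 had no region over any part of the gene, and its 3 assigned regions lay 3597 to 8954 bp upstream. Sfrp1 was the antagonist with the most assigned regions, 8, of which its start-site region did not have the highest score: a region 50944 bp upstream had 113.3.

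**Figure D3:**
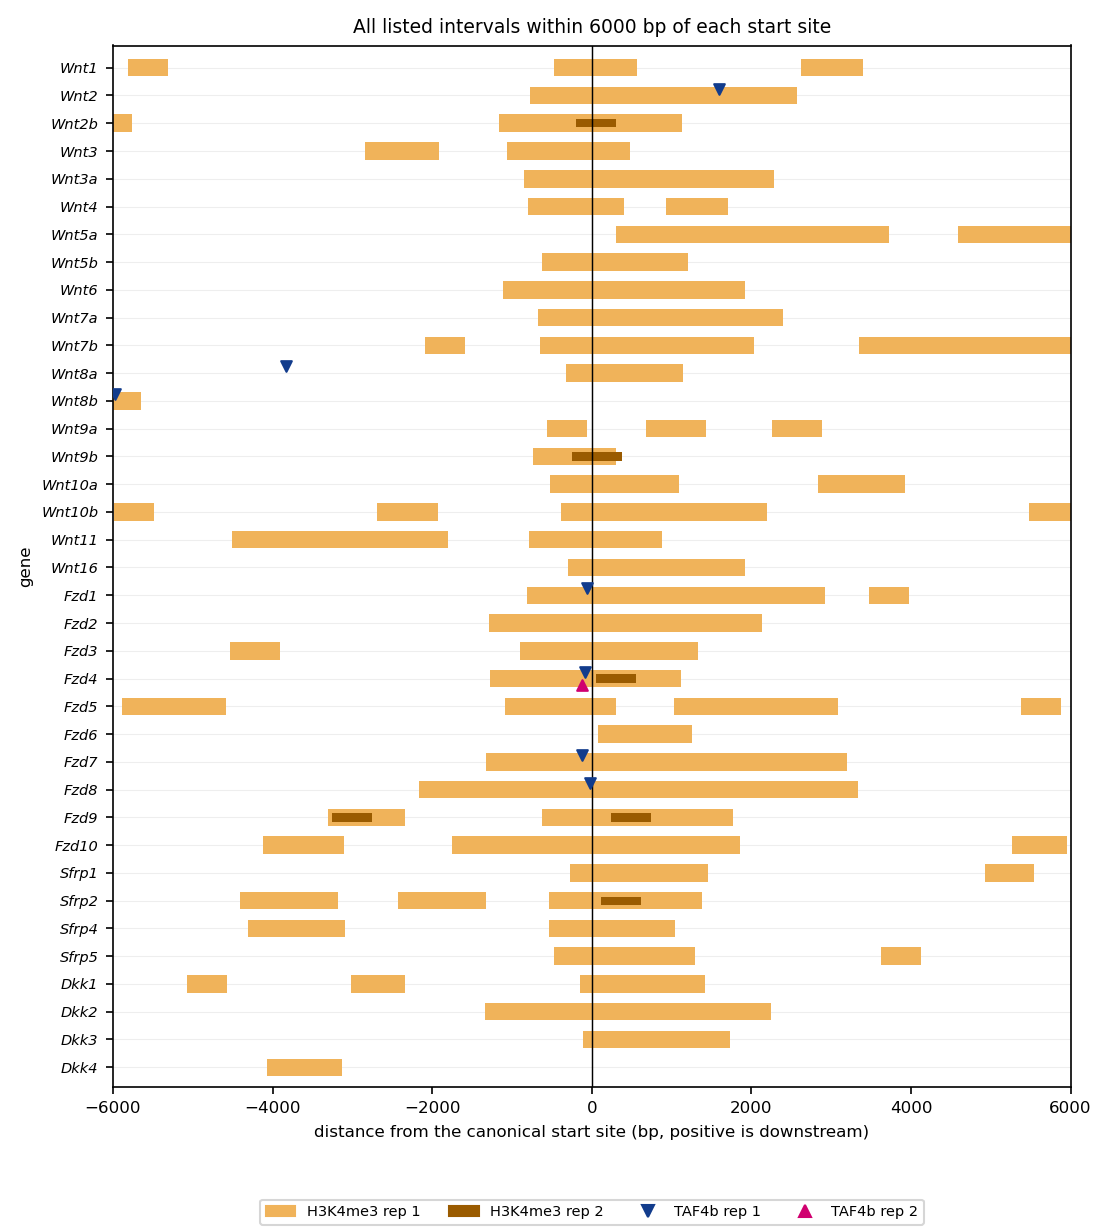
All listed intervals within 6000 bp of the canonical start site of each of the 37 genes (y axis), placed by distance from that site (x axis, bp, positive downstream); bars are H3K4me3 regions and triangles the centres of TAF4b peaks. Most light bars extend further downstream than upstream, Wnt5a, Wnt8b, Wnt9a, Fzd6 and Dkk4 have none across the line, and the replicate 2 bars lie within or across those of replicate 1.

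In replicate 2, 8 H3K4me3 regions belonged to these genes, and all 8 overlapped a region of replicate 1. Wnt9b had the highest score, 146.5 (rank 268 of 1730, 631 bp), at a start site that ranked 12621 in replicate 1. Sfrp2 had a promoter region of 500 bp (score 116.2, rank 711) and Wnt2b of 500 bp (score 96.0, rank 1464, the lowest score listed). Fzd4 had a region of 500 bp just inside the gene (score 121.3, rank 591), with the promoter class annotated to Tmem135. The other 4 lay elsewhere in or near the genes. Fzd9 had regions in its exon (101.1, rank 1165) and upstream (106.1, rank 1042), Wnt6 in an exon (121.3, rank 591) and Wnt10a at its end (106.1, rank 1042). In the other direction, 8 of the 117 regions of replicate 1 (6.84%) overlapped replicate 2, against 2.6% of all its regions. The high-ranking Wnt regions of replicate 1 were mostly not those listed in replicate 2: of the 12 best regions of the whole list 8 (66.7%) were found again, and Fzd8, which ranks 12, was not. Of the 12 Wnt genes with a start-site region among the 1000 best scores, Fzd4 had an overlapping region in replicate 2, where 249 of those 1000 regions (24.9%) did.

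TAF4b promoter peaks were listed at 4 of 37 genes (10.8%) in replicate 1, against 22.7% of all protein-coding genes, and at 1 of 37 (2.7%) in replicate 2, against 3.12%. All 4 genes are receptors, Fzd1, Fzd4, Fzd7 and Fzd8, and the replicate 2 peak is at Fzd4. The 19 ligands and 8 antagonists had none in either list. Few peaks are listed in replicate 2 and the depth is unknown, so a peak missing there cannot be told apart from one too weak to be listed.

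The Fzd4 peak was at 89053402 to 89053544 of chromosome 7 in replicate 1 (score 24.3, rank 1432 of 7861) and at 89053350 to 89053538 in replicate 2 (score 60.7, rank 382 of 848). Both overlap the stretch between the Fzd4 and Tmem135 start sites printed above. The nearest start site by the deposited distance is that of Tmem135, a gene of mitochondrial and peroxisomal metabolism, so the peak cannot be assigned to Fzd4 alone. Fzd7 had a peak with a score of 21.3 (rank 2005), upstream of its canonical start site at 59521269 of chromosome 1. Fzd8 had a score of 13.9 (rank 4183) and Fzd1 a score of 12.9 (rank 4578), with peaks over their start sites. None of these 3 was listed in replicate 2. Counted by a covered start site instead of the class, Fzd1 and Fzd8 remain in replicate 1 (5.41%, against 20% of protein-coding genes) and no gene in replicate 2 (against 2.87%). The canonical start site gives the same 2 genes (against 13.6%) and none in replicate 2 (against 2.08%). Within 1000 bp by the deposited distance, Fzd1, Fzd7, Fzd8 and the ligand Wnt2 had a peak in replicate 1 (against 23.9%) and no gene in replicate 2 (against 3.18%); Fzd4 is not counted there because its nearest start is that of Tmem135.

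The other 3 TAF4b peaks of replicate 1 did not have the promoter class. Wnt2 had a low-scoring peak in an exon (7.94, rank 7270), 283 bp from the nearest start site and inside its 3354 bp H3K4me3 region. Wnt8b had a peak 5975 bp upstream (score 14.9, rank 3805) that overlapped an H3K4me3 region of 627 bp there. Wnt8a had a peak 3925 bp upstream (score 8.93, rank 6623) outside any H3K4me3 region. Of the 8 TAF4b peaks in both lists, 6 overlapped a region of the same-numbered H3K4me3 list. The exceptions were the Wnt8a peak and the replicate 2 peak at Fzd4, which overlapped the replicate 1 region. The share of all TAF4b peaks with such an overlap was not counted, so 6 of 8 cannot be called high or low.

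Among genes whose start site was covered by H3K4me3 in replicate 1, TAF4b promoter peaks were listed at 4 of 34 Wnt genes in replicate 1 (11.8%), against 31.9% of all covered protein-coding genes. The receptors accounted for 4 of 10 (40%), and the ligands for 0 of 17 and the antagonists for 0 of 7. Over all genes, TAF4b promoter peaks were at 27.7% of those with a start-site region of 3000 bp or wider and at 32% of those with a narrower region. For the Wnt genes the counts were 3 of 11 (Fzd1, Fzd7 and Fzd8) and 1 of 23 (Fzd4). In replicate 2, 1 of the 34 had a promoter peak, against 4.52%.

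The antibodies were compared over the 4 libraries. A promoter-class interval was listed at 43.2% and 8.11% of the 37 genes for H3K4me3 (25.7% ± 24.8, SD, n = 2) and at 10.8% and 2.7% for TAF4b (6.76% ± 5.73, SD, n = 2). The groups overlap, since H3K4me3 replicate 2 lies below TAF4b replicate 1. The difference of 18.9 percentage points did not pass an exact two-sided permutation test (p = 0.667), for which 0.333 is the smallest p-value that 2 libraries against 2 can give. Of all protein-coding genes, 44% and 4.14% had such an interval for H3K4me3 and 22.7% and 3.12% for TAF4b. It was 5.41 points without replicate 1 and 32.4 points without replicate 2. With the lists of each antibody brought to equal length it was 6.76 points (8.11% and 8.11% against 0% and 2.7%, exact permutation p = 0.333). The shares of protein-coding genes were then 3.45% and 4.14% for H3K4me3 and 3.35% and 3.12% for TAF4b, and 1 gene is 2.7% of the 37. By covered start sites the difference was 47.3 points (50% ± 59.2 against 2.7% ± 3.82, SD, n = 2, exact permutation p = 0.333). The groups no longer overlapped. Over all protein-coding genes the covered shares also differed, at 64.4% and 5.49% for H3K4me3 and 20% and 2.87% for TAF4b. Every TAF4b peak is narrower than the narrowest H3K4me3 region (500 bp), so H3K4me3 covers a start site more easily by construction. The part of interval width in the 47.3 points was not tested. For the receptors alone the difference was -10 percentage points (H3K4me3 at 30% and 0%, TAF4b at 40% and 10%). That sign rests on the assignment: with the nearest transcript as well, which adds Fzd10 and Fzd4, it was 0 (40% and 10% for either antibody).

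The rest of the pathway, 58 genes listed by role, had a promoter-class H3K4me3 region at 36 genes (62.1%, against 44% of protein-coding genes) in replicate 1 and 5 (8.62%, against 4.14%) in replicate 2. TAF4b promoter peaks were at 19 (32.8%, against 22.7%) and 4 (6.9%, against 3.12%). By covered start site, 50 of 58 (86.2%, against 64.4%) were marked in replicate 1, with a median width of 1713 bp. Of the 19 genes of cytoplasmic transduction, which relay the signal from the receptor to beta-catenin, the TAF4b list of replicate 1 held promoter peaks at 13 (68.4%) and that of replicate 2 at 2 (10.5%). By canonical start site the counts were 7 (36.8%, against 13.6% of protein-coding genes) and 1 (5.26%, against 2.08%), and the difference between gene groups was not tested. The 13 include Ctnnb1 (beta-catenin itself, score 13.9), Axin1 (the scaffold of the destruction complex, 17.4) and Gsk3a (a kinase of that complex, 23.3). Restricted to genes with a covered start site, 16 of the 50 (32%) had a peak, close to the 31.9% of all covered protein-coding genes. By role the counts were 11 of 17 cytoplasmic genes (64.7%), 3 of 7 coreceptors and other receptors, 2 of 12 nuclear genes, 0 of 9 genes of secretion and extracellular modulation, 0 of 2 of receptor turnover and 0 of 3 target genes. The secreted modulators (such as Rspo1, Wif1 and Notum) thus had no promoter-class peak, like the Wnt ligands and the Sfrp and Dkk antagonists, although Rspo2 had a peak within 1000 bp of a start site.

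Of the pathway genes outside the 37, 4 had a TAF4b promoter peak in both lists. Lgr4, a receptor for R-spondins, had the highest ranks, with a score of 36.7 in replicate 1 (rank 303) and 89.1 in replicate 2 (rank 109). Tle1, a corepressor of TCF factors, had 30.8 (rank 645) and 64.8 (rank 327). Csnk1d, a casein kinase, had 21.3 (rank 2005) and 48.6 (rank 635), and Gsk3b, the kinase that marks beta-catenin for breakdown, had a replicate 1 peak of 24.8 (rank 1362) that overlapped its replicate 2 peak of 48.6 (rank 635), and another of 26.3 (rank 1122) that did not. In H3K4me3 replicate 2, promoter regions were listed at Apc (score 171.8, rank 128), Csnk1d (141.5, rank 307), Bcl9 (101.1, rank 1165), Dvl2 and Tle1 (96.0, rank 1464, for each). The 22 genes with no promoter-class H3K4me3 region annotated to them in replicate 1 were Amer1, Apc2, Btrc, Ccnd1, Dvl3, Kremen1, Lef1, Lgr4, Lgr5, Lrp6, Nkd1, Nkd2, Ptk7, Pygo1, Ror1, Rspo2, Rspo4, Sost, Tle4, Tnks, Tnks2 and Wls. Of these 22, 16 had a covered start site all the same; the exceptions were Kremen1, Lrp6, Pygo1, Rspo4, Sost and Tnks2.

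**Figure D4:**
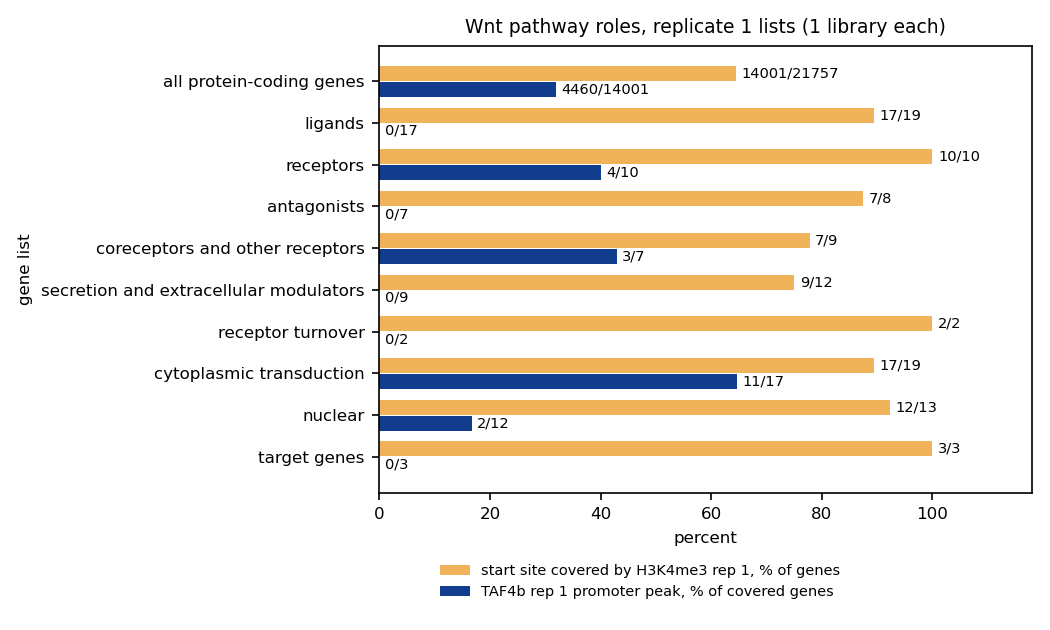
Share of each gene list (y axis) with a start site covered by H3K4me3 in replicate 1 (light bars, percent of genes) and share of those covered genes with a TAF4b promoter peak in replicate 1 (dark bars); counts are printed beside the bars. Receptors, coreceptors and cytoplasmic genes have dark bars of 40% or longer, and ligands, antagonists, secreted modulators, receptor turnover and target genes have none.

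The sorted cells were checked against marker genes. Of 12 germ cell markers, 9 had a covered start site in H3K4me3 replicate 1 (75%, against 64.4% of protein-coding genes), and Nanos2, Nanos3 and Tdrd9 did not. A promoter-class peak in TAF4b replicate 1 was listed at 7 (58.3%, against 22.7%), which were Dazl, Ddx4, Dnd1, Mael, Piwil2, Sycp3 and Tdrd9. The 5 without one were Dppa3, Kit, Nanos2, Nanos3 and Pou5f1. Of 20 markers of Sertoli, interstitial, endothelial and blood cells, 11 had a covered start site in that H3K4me3 list (55%, against 64.4%) and 0 a promoter-class TAF4b peak in either TAF4b list (a TAF4b peak of replicate 1 did cover a start site of Nr5a1). By cell type the covered start sites were 5 of 6 for Sertoli cells (Amh not), 5 of 8 for Leydig and other interstitial cells, 1 of 3 for endothelial cells and 0 of 3 for blood cells. In the replicate 2 lists no germ cell marker had an interval at its start site, and of the others the Sertoli cell marker Wt1 was covered by H3K4me3. The part of other cell types in the H3K4me3 regions at Wnt genes was not tested, and a region present in few cells cannot be told apart from a weaker one in many.

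Promoter sequence was read for the 37 genes from 250 bases before to 50 after the canonical start site. Their median G and C content was 62%, against 54.3% over 21738 protein-coding genes, and their median number of CpG dinucleotides was 19 against 11. Ligands (65.7%, 24 CpG) and receptors (65.7%, 22 CpG) were alike, and antagonists were lower (52%, 10 CpG). The highest G and C content was that of Wnt3a (85.3%, 45 CpG), and the most CpG were in Wnt5b (78%, 47 CpG). The 3 genes without a covered start site differed among themselves: Dkk4 had 49.3% and 4 CpG, Wnt8b 48.7% and 6, and Wnt9a 70.3% and 32.

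Of 6 short motifs searched on both strands, the GC box GGGCGG was in 21 of the 37 windows (56.8%), against 42.5% of all windows. The CCAAT box CCAAT was in 16 (43.2%), against 39.9%, and by role in 8 of 10 receptors, 6 of 19 ligands and 2 of 8 antagonists. The windows of all 4 genes with a TAF4b promoter peak held a CCAAT box, and 11 of the 30 covered genes without a TAF4b promoter peak did (36.7%). All 4 are receptors, and of the 6 receptors without a TAF4b promoter peak 4 held a CCAAT box. The TATA box TATAAA was in 4 windows (10.8%, against 13.2%), those of Dkk1, Dkk2, Dkk4 and Fzd8. The ETS core CCGGAA was in 2 (5.41%, against 16.9%), the TCF/LEF core CTTTGA in 3 (8.11%, against 16.2%) and the E-box CACGTG in 2 (5.41%, against 7.82%). The TCF/LEF core, the letters bound by the factors at the end of the canonical pathway, was in the windows of Dkk1, Dkk4 and Wnt8a. A match is a description of letters, not of a bound site.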

How the data were processed

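CUT&RUN intervals of 4 libraries were used. Per the file headers, the H3K4me3 regions were annotated with annotatePeaks of HOMER against GRCm39 and Ensembl 103. The TAF4b lists name no build, and GRCm39 is given per the submitters' processing notes, which also name bcl2fastq 2.20, Trim Galore 0.5.0, FastQC 0.11.5, Bowtie2 2.3.0, SAMtools 1.9 and HOMER 4.10. The peak-calling settings are not given in the sources used here. The score of each interval is the authors' deposited value and was read only as a rank or level within its list. A deposited fraction (the focus ratio of TAF4b peaks) was not used. Read totals are not in the lists, so the depth is unknown.

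Genes were named by looking up transcript identifiers in GENCODE M39, where 98.6% to 99.1% of the nearest transcripts were found. A gene was called by the deposited promoter-TSS class of an interval whose annotation names its transcript or, where stated, by an interval sharing at least 1 bp with a start site of any of its transcripts. Promoter windows were read from GRCm39 at GENCODE canonical start sites. Counts carry no test. Percentages of the 37 genes were compared over libraries by exact permutation (Python 3.11.15, pandas 2.3.3, numpy 2.4.6, scipy 1.17.1), and the code was tested on simulated data. P-values measure only the spread between these samples.

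Genes, lists and tests were chosen with earlier results of these data known. The rule for values in full took genes with a TAF4b interval, genes with a promoter-class region in H3K4me3 replicate 2, and the 5 widest and 5 highest-scoring promoter-class regions of replicate 1. By width these were Fzd10, Wnt2, Wnt7a, Wnt5a and Wnt7b, and by score Wnt2, Fzd10, Fzd4, Wnt5a and Wnt7a; Fzd10 and Wnt7a enter through the nearest transcript. Other genes given in full were chosen after their values were seen. Alternatives covered the definition of a promoter interval, the higher-scoring 50% of each list, lists of equal length, each replicate on its own, a replicate block and each role alone.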

Additional observations from a re-analysis of the deposited data

How the results depend on the processing

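The replicate 1 lists carry most results. For H3K4me3 minus TAF4b, the percentage-point difference (18.9) ranged from 5.41 to 32.4 with either replicate left out and was 6.76 with lists of equal length, 47.3 by covered start sites, 45.9 within 1000 bp, 43.2 by canonical start sites and 34.2 for the ligands alone. It was 18.9 with the replicate block, where the smallest p-value is 0.5. The labels do not say that equal numbers share a source, and over 21757 genes same-numbered deviations had a Pearson r of 0.238. That value cannot tell whether they do, because the replicate 1 list is the longer one for both antibodies. The difference turned to -10 for the receptors alone, and to 0 for them with promoter-class intervals assigned by the nearest transcript as well. That assignment (chosen after seeing the data, as were canonical start sites) gave 23 for all 37 genes and 18 genes with H3K4me3. Genes with an H3K4me3 promoter region (16 in all) numbered 34 by covered start sites, 34 within 1000 bp, 32 by canonical start sites, 6 with lists of equal length, and 3 to 16 with a replicate left out. Genes with a TAF4b promoter peak (4) numbered 2 by covered and by canonical start sites, 2 in the higher-scoring 50%, 1 with equal length, and 1 to 4 with a replicate left out. Of the other pathway genes, 36 with H3K4me3 became 10 with equal length and 5 to 36 by replicate; 19 with TAF4b became 8 in the higher-scoring 50%, 4 with equal length, 10 by canonical start sites and 4 to 19 by replicate. The median promoter-class width, 1624 bp against 1341 bp over all genes, was 2855 bp summed within 2500 bp of start sites and 500 to 1624 bp by replicate, and the median share of promoter-class regions with a lower score (not of the whole list, as in the results) was 52% to 78.2% by replicate. TAF4b peaks inside H3K4me3 regions, 6, numbered 1 with the other H3K4me3 list and 2 in the higher-scoring 50%. Fewer intervals enter the shorter lists by construction, and other causes were not tested.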

Other observations

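Among the other 50 pathway genes with a covered start site, 4 had an H3K4me3 region of 3000 bp or wider there in replicate 1, and they are nuclear factors or target genes. Sp5, a direct target of beta-catenin, had 5776 bp (score 287.7, rank 133 of 64891). Tle3, a corepressor of TCF factors, had the same width (score 366.7, rank 33), and Ccnd1, the target that encodes cyclin D1, had 4871 bp (score 308.6, rank 99). Lef1, a partner of beta-catenin, had 3224 bp (score 177.4, rank 1301). TAF4b replicate 1 listed a promoter peak at Lef1 and at no other of these 4, and none had a promoter-class interval in the replicate 2 lists.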
